A study of Mus musculus with 4 samples.

Results

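Ahnak encodes a giant scaffold protein. It was represented by 13 of the 6697 distinct regions in a deposited table of captured RNA, found as every row that carries the gene symbol Ahnak. In these 13 regions, libraries of N6-methyladenosine (m6A) RNA from mouse embryonic stem cells held 310 reads in the Gsk-3 double knockout (DKO) and 2389 reads in wild type (WT). Reads were present in the DKO library in all 13 regions. The gene was chosen by its measured DKO and WT counts in this table, so what follows on those counts is a description without a test.

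AHNAK is built largely of repeated units, and most of its protein is encoded by a single very large exon. It lies beneath the plasma membrane, where it is known to bind the complex of annexin A2 and S100A10 and the actin cytoskeleton, and it has been linked to calcium channels and to membrane repair. The m6A mark is laid on adenosines of messenger RNA by a nuclear methyltransferase complex and is known to be common near stop codons and in long internal exons. Gsk-3α and Gsk-3β are kinases that restrain Wnt and insulin signalling.

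The study asked how m6A-modified mRNA differs between Gsk-3 DKO cells and WT cells of the E14K embryonic stem cell line. Per the labels, there were 4 samples with 1 library per group. They were m6A-captured mRNA and uncaptured input mRNA, from DKO cells and from WT cells. All cells were feeder-free and had gone 14 days without leukaemia inhibitory factor, the cytokine that sustains self-renewal, so the WT cells were under the same withdrawal as the DKO cells. The labels do not name the individual Gsk-3 alleles or say whether each genotype is a single clone. Polyadenylated RNA was enriched on oligo(dT) beads, m6A RNA was captured from it with an antibody on beads, and both were fragmented chemically before library preparation.

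The table gave 1 DKO count and 1 WT count per region. DKO counts ran from 0 to 1100 (median 0) and WT counts from 15 to 13799 (median 43), with totals of 27072 DKO and 573971 WT reads in this list, which are not sequencing depth. The count columns name the genotype and not the kind of library, and they were matched to the m6A samples because only those titles carry the name of the assay. Values corrected for input, or input counts, cannot be told apart from them here. No listed region had as many DKO reads as WT reads (0 of 6697), so the lower count of Ahnak in DKO is shared with every region of the list and says nothing of genes outside it. In bulk RNA, fewer cells of a type and less RNA per cell cannot be told apart, nor can fewer copies of the Ahnak mRNA and less m6A on each copy without an input count.

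The embryonic stem cell label was set against defining markers. Of 10 stem cell markers 3 were listed, with 6 DKO and 55 WT reads for Pou5f1, 12 and 187 for Esrrb, and 0 and 19 for Lin28a, while Nanog, Sox2, Klf4, Zfp42, Tdgf1, Fgf4 and Dppa5a were not listed. Endoderm markers were listed for 7 of 10 genes, with summed counts of 524 in DKO and 4692 in WT. Most of these reads came from Lamc1 (290 DKO and 2760 WT), Col4a1 (134 and 957) and Lama1 (73 and 629). Sparc had 10 and 103, Gata6 8 and 59, Sox7 7 and 121, and Sox17 2 and 63. Afp, Foxa2 and Gata4 were not listed. Fibroblast and mesenchyme markers were listed for 5 of 10 genes, with 8 DKO reads and 728 WT reads in all, and Col1a1, Col5a1, Vim and Pdgfrb were at 0 in DKO. A gene can be missing from this table without being silent. The part of such cells in the Ahnak counts was not tested.

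All 13 Ahnak regions lay on chromosome 19, between bases 9002609 and 9017670, a span of 15062 bases. The deposited distances to the transcription start, taken from the middle of each region, put that start at base 8989284, the first base of Ahnak (NCBI gene 66395) in the RefSeq annotation of GRCm38.p6, for 13 of 13 regions to within 1 base. The coordinates therefore match GRCm38, whereas mm9 is the build in the submitters' processing notes. RefSeq places the gene from 8989284 to 9076935, so the listed regions began 13325 bases into the gene and took up 17.2% of its length. No region was listed in the 59265 bases of the gene beyond the last one, and 0 other RefSeq genes overlapped the span.

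Regions were 151 to 249 bases long (median 207), against a median of 191 over the whole table, and together they covered 2693 bases, or 17.9% of the span. They fell into an upstream group of 4, between 13.4 and 15.8 kb from the transcription start, and 9 more from 20.8 kb onward. Between these groups lay the longest stretch without a listed region, 4746 bases. The shortest stretch between neighbours was 44 bases, so some of the regions may be parts of a single enriched stretch and are not independent.

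Each of the 13 regions carried the authors' label intron, given against the transcript NM_001039959. RefSeq holds 10 transcripts of the gene, and the table used here does not hold their exon borders. Whether the regions are exonic in another transcript, such as the giant coding exon, was not tested.

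The upstream group held moderate counts. The region at 13.4 kb (9002609 to 9002849) had 33 reads in DKO (95% counting interval 22.7 to 46.3) and 217 in WT (189 to 248). That made it 5.42-fold lower in DKO (interval 3.75 to 8.08), a fold equal to the deposited enrichment factor of WT over DKO, which scales the WT count by a constant of 0.825. It was the deepest of this group in both libraries.

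The next region, at 14.7 kb (9003863 to 9004052), was the shallowest of the group in both libraries, with 6 DKO reads and 55 WT reads (7.56-fold lower, 3.26 to 21.5). At 15.5 kb (9004705 to 9004908) there were 29 DKO reads and 172 WT reads, 4.89-fold lower (3.29 to 7.52). Only 48 bases further on, the region at 15.8 kb (9004957 to 9005205) had 18 DKO and 130 WT reads, 5.96-fold lower (3.62 to 10.4). All 4 intervals overlapped, and summed over the group the counts were 86 in DKO and 574 in WT, 5.50-fold lower (4.38 to 6.99).

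Downstream of the gap, the region at 20.8 kb (9009952 to 9010168) had 28 reads in DKO and 131 in WT. Its fold, 3.86 (2.55 to 6.03), was the smallest of the 13, and DKO reads stood at 25.9% of WT after the constant. This was the only region whose interval lay wholly below the fold of all regions summed.

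From 22.6 to 24.9 kb no region had more than 11 DKO reads, and the region at 24.9 kb had the lowest counts of the profile in both libraries. The region at 22.6 kb (9011752 to 9011985) had 10 DKO and 71 WT reads (5.86-fold lower, 3.01 to 12.7), and the region at 23.3 kb (9012557 to 9012707) had 11 DKO and 121 WT reads (9.07-fold lower, 4.89 to 18.7). Those at 24.4 kb (9013557 to 9013769) and 24.9 kb (9014064 to 9014262) had 6 and 2 reads in DKO, against 80 and 41 reads in WT. These last were the only regions at least 10-fold lower in DKO, by 10.997-fold (4.84 to 30.9) and 16.9-fold (4.39 to 144). Their intervals are wide because so few DKO reads lie behind them, and both reach below the summed fold.

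Immediately downstream, both libraries were higher again. At 25.1 kb (9014307 to 9014488), which starts 44 bases after the region with 2 DKO reads, there were 19 DKO reads and 132 WT reads, 5.73-fold lower (3.53 to 9.82). At 25.6 kb (9014751 to 9014957) there were 30 DKO and 168 WT reads, 4.62-fold lower (3.12 to 7.06).

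The largest counts of both libraries came from the end of the profile. The region at 27.4 kb (9016601 to 9016787) had 63 DKO reads (48.4 to 80.6) and 480 WT reads (438 to 525), 6.28-fold lower (4.82 to 8.31). The region at 28.3 kb (9017452 to 9017670) had 55 DKO reads (41.4 to 71.6) and 591 WT reads (544 to 641), 8.86-fold lower (6.72 to 11.9). The order of these regions thus differed between the libraries, with the first higher in DKO and the second higher in WT, although the DKO intervals overlap. The region at 28.3 kb was the only one whose interval lay wholly above the summed fold.

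**Figure D1:**
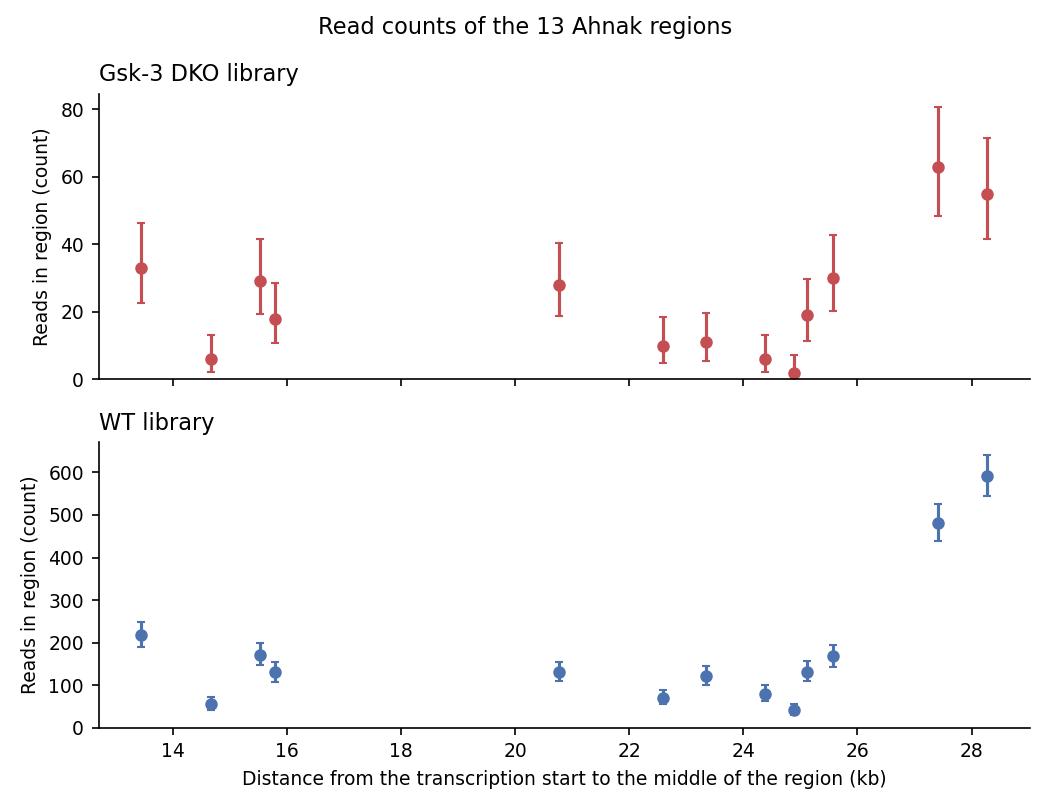
Reads in each of the 13 Ahnak regions (vertical axis, counts) against the distance of its middle from the transcription start (horizontal axis, kb), for the Gsk-3 DKO library (top) and the WT library (bottom), which have different vertical scales. Bars are exact Poisson 95% intervals of 1 library each. In both panels the regions at 27.4 and 28.3 kb are highest, with 63 and 55 DKO reads and 480 and 591 WT reads, and the region at 24.9 kb is lowest, with 2 DKO reads and 41 WT reads.

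Per length, the peak at the end of the profile was steep. WT reads per 100 bases ranged from 20.6 at 24.9 kb to 257 and 270 in the last 2 regions, with a median of 72.5 over the 13. The median of all listed regions was 21.9 WT reads per 100 bases, and the last 2 Ahnak regions ranked 51 and 43 of 6697 in the table by this density. DKO reads per 100 bases ran from 1.01 at 24.9 kb to 33.7 at 27.4 kb, with a median of 10.4.

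The last 2 regions held 118 of the 310 DKO reads, or 38.1% (exact 95% interval 32.6 to 43.7), and 1071 of the 2389 WT reads, or 44.8% (42.8 to 46.9). The first 4 held 27.7% of DKO reads (22.8 to 33.1) and 24.0% of WT reads (22.3 to 25.8). For the 7 in between the shares were 34.2% (28.9 to 39.8) and 31.1% (29.3 to 33.0). The last 2 regions took a smaller share of the DKO reads than of the WT reads, but the DKO and WT intervals overlapped in every stretch. The stretches were set after the counts were seen, and the last 2 regions hold the most WT reads. No effect of position is therefore read from these shares. Among single regions, the fold intervals at 20.8 kb and 28.3 kb did not overlap. That pair was picked after the folds were seen, with no allowance for the many possible pairs, so it is a description only. Reads made by PCR are not independent molecules, and these intervals cover counting error only.

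Across the 13 regions the DKO and WT counts followed each other, with a Spearman coefficient of 0.97 and a Pearson coefficient of 0.93. These points share both libraries and the same transcript, and region length enters both counts. The log2 of DKO over WT had a Spearman coefficient of -0.31 with distance from the transcription start and 0.38 with the WT count, both weak over 13 regions.

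Summed over all 13 regions, Ahnak was 6.36-fold lower in DKO (5.64 to 7.18), so that DKO stood at 15.7% of WT (13.9 to 17.7). The folds of single regions ran from 3.86 to 16.9, with a median of 5.96. The summed fold lay inside the intervals of 11 regions and outside those of the 2 at 20.8 and 28.3 kb. Without the 2 regions farthest from the start, which hold the most WT reads, the fold was 5.66 (4.86 to 6.62). In those regions alone it was 7.49 (6.18 to 9.13), and these intervals overlapped.

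**Figure D2:**
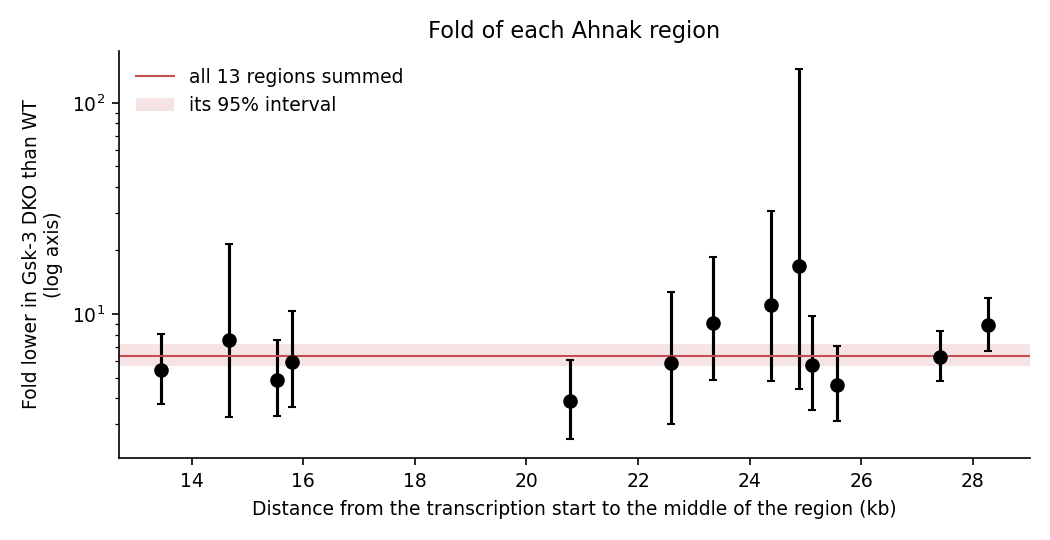
Fold by which the Gsk-3 DKO count lay below the WT count in each Ahnak region (vertical log axis), after the authors' constant, against distance from the transcription start (horizontal axis, kb). Points are single regions with exact Clopper-Pearson 95% intervals, the line is the fold of all 13 regions summed (6.36) and the band its interval (5.64 to 7.18). The region at 20.8 kb lies below the line and the region at 28.3 kb above it, beyond their intervals.

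Of the 13 Ahnak regions, 2 were at least 10-fold lower in DKO, where 52.5% of all listed regions and 46.8% of intron-labelled ones were (a count of 0 being set to a floor of 3 reads). At that floor, a region with 0 DKO reads and few WT reads cannot reach 10-fold. Among regions with WT counts of 41 to 591, the range of Ahnak, the shares were 76.9% of all and 88.5% of intron-labelled ones. None of the 13 had 0 DKO reads, where 50.5% of all listed regions did, and 33.6% of those in that range. The gene was chosen for this contrast, and nothing further is read from these shares. The median log2 of DKO over WT, with 0.5 added to each count, was -2.54 in Ahnak and -4.93 over the table.

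Ahnak made up 0.194% of the listed regions, 1.15% of the listed DKO reads and 0.416% of the listed WT reads. By summed count it was the fifth of 3882 genes in DKO and the tenth in WT. The region with the most DKO reads, at 27.4 kb, ranked 37 of 6697 in the table for DKO and 121 for WT.

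The Ahnak regions were also set beside the other regions that carry the intron label. Excluding Ahnak, 741 of 1032 regions labelled only as intron (71.8%, 68.9 to 74.5) had no DKO reads, and with Ahnak the share was 70.9%. Among the other intron-labelled regions with WT counts inside the range of Ahnak, 41 to 591, 238 of 439 (54.2%, 49.4 to 58.9) had no DKO reads, and their summed fold was 25.4, against 6.36 in Ahnak. Coding-exon regions in the same range of WT counts had no DKO reads in 411 of 1761 (23.3%, 21.4 to 25.4), and their summed fold was 13.6. The fold of Ahnak was smaller than that of either kind of region summed. The gene was chosen by these counts, so this is a description, and the difference was not tested.

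**Figure D3:**
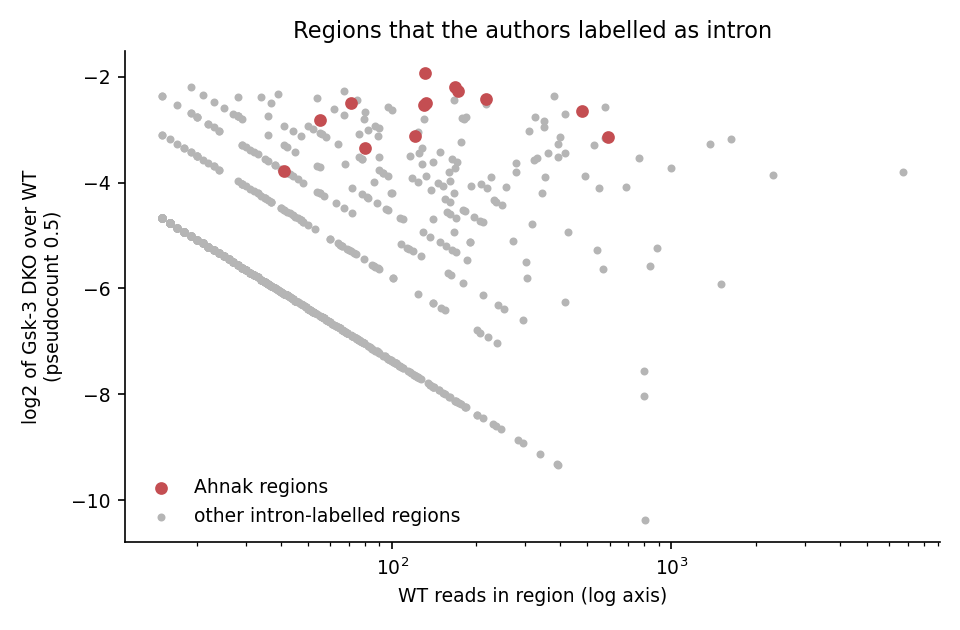
Log2 of Gsk-3 DKO over WT (vertical axis, 0.5 added to each count) against the WT count (horizontal log axis) for regions that the authors labelled only as intron, with the 13 Ahnak regions in red and 1032 others in grey. The lowest diagonal line of points holds the regions without DKO reads (741 of the others). The Ahnak regions lie between -3.78 and -1.93, above that line.

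Ahnak was among 10 genes with at least 5 listed regions that were all labelled as intron, which form 5 distinct sets of regions. Of the other 9, chosen after their values were seen, 7 were protocadherin gamma genes, which share regions with each other, and the rest were Tex14 and Macrod2. Each of the 9 had at least 1 region without DKO reads, none had more than 6 regions, and their summed folds ran from 16.97 to 58.8. A region at 0 is common, since only 34 of the 142 genes with at least 5 regions (23.9%) had none. The protocadherin genes had only 3 or 5 DKO reads each. Macf1, a giant linker of microtubules and actin that was also picked after its values were seen, had 8 of 10 regions labelled as intron. It had 65 DKO reads and 1170 WT reads in all (14.8-fold lower, 11.6 to 19.4), with 3 regions at 0 in DKO.

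Of 142 genes with at least 5 regions, which form 128 distinct sets of regions, Ahnak had the third smallest summed fold. Genes nearest to it were found by the smallest difference in log2 of summed DKO over WT. Ywhag, which encodes a 14-3-3 adaptor, had 93 DKO and 758 WT reads (6.72-fold lower, 5.41 to 8.43), from 6 regions that are also listed under Gm19383. The basement membrane collagen gene Col4a1 had 134 and 957 (5.89-fold, 4.91 to 7.11), the ephrin receptor gene Ephb3 43 and 365 (7.00-fold, 5.09 to 9.84), and 1110012J17Rik 128 and 1088 (7.01-fold, 5.83 to 8.49).

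All these intervals overlapped that of Ahnak, and the likeness is over 1 library per genotype. The levels of the genes were not alike, since Ahnak had more reads in both libraries than any of them. None of the 5 had a region labelled only as intron, unlike Ahnak, whose 13 regions were so labelled against a single transcript. The median fold of the 142 genes was 16.8, with 78.2% of them at least 10-fold lower.

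**Figure D4:**
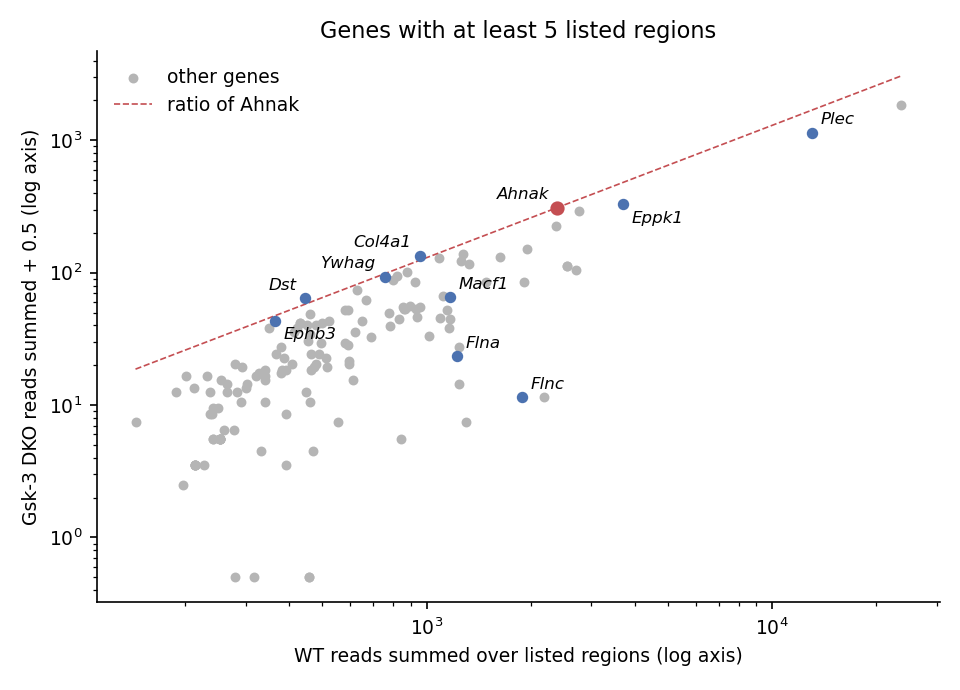
Gsk-3 DKO reads plus 0.5 (vertical log axis) against WT reads (horizontal log axis), each summed over the listed regions of a gene, for the 142 genes with at least 5 regions. Ahnak is red, and Plec, Eppk1, Flna, Flnc, Dst, Macf1, Ywhag, Col4a1 and Ephb3 are blue. Other genes, some of them named in the text, are grey, and the dashed line marks the ratio of Ahnak (310 over 2389 reads). Dst and Col4a1 lie above the line, and Flnc, with 11 DKO reads against 1888 WT reads, lies far below it.

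Giant and modular cytoskeletal scaffold genes were spread over a wide range. Of 27 such genes 24 were listed, some under older symbols, and 18 of the 24 were at least 10-fold lower in DKO by summed counts, beside 59.5% of all 3882 genes. Their median fold was 17.2, beside 12.3 over all genes. Among the 142 genes with at least 5 regions, 78.2% were at least 10-fold lower and the median fold was 16.8, so the list lay near these. Dst, a plakin that links filament systems, had 64 DKO and 444 WT reads (5.72-fold lower, 4.39 to 7.56), an interval that overlapped that of Ahnak. The paralog Ahnak2 was not listed.

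Plec encodes plectin, another plakin, and was the deepest member of that list. It had 1139 DKO reads and 13036 WT reads over 27 regions, 9.44-fold lower (8.88 to 10.04). Epiplakin, encoded by Eppk1 and likewise built of repeats, had 331 and 3710 reads over 15 regions (9.24-fold lower, 8.26 to 10.4). The filamin genes Flna and Flnc, actin crosslinkers with 12 and 14 regions, had 23 and 11 DKO reads against 1224 and 1888 WT reads, 43.9-fold (29.1 to 69.5) and 142-fold (78.9 to 284) lower. The counting intervals of these 4 genes did not overlap that of Ahnak, which is a description of 1 library per genotype, since Ahnak was chosen by these counts.

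The spread within a gene was also compared. Among the 16 genes with at least 10 regions, Ahnak and Plec were the only ones with DKO reads in every region. The log2 values of Ahnak ran over 1.85 units, from -3.78 to -1.93, the narrowest range of the 16. Plec ran over 2.21 units and Eppk1, with 5 regions at 0, over 5.73, and the median range of the 16 was 4.004. Ahnak kept the narrowest range with 0.25 or 2 in place of 0.5 added to the counts. In the 16 genes other than Ahnak and Plec, however, the range includes regions at 0. The log2 of such a region is set by the added count and its WT count. Since Ahnak was chosen by its counts, its narrow range is a description only. Among all 142 genes with at least 5 regions, however, the range of Ahnak was the 19th narrowest, and 34 genes (23.9%) had no region at 0. Ywhag and Ephb3, with 6 and 5 regions, had no region at 0 and narrower ranges than Ahnak, of 0.68 and 0.73 units.

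**Figure D5:**
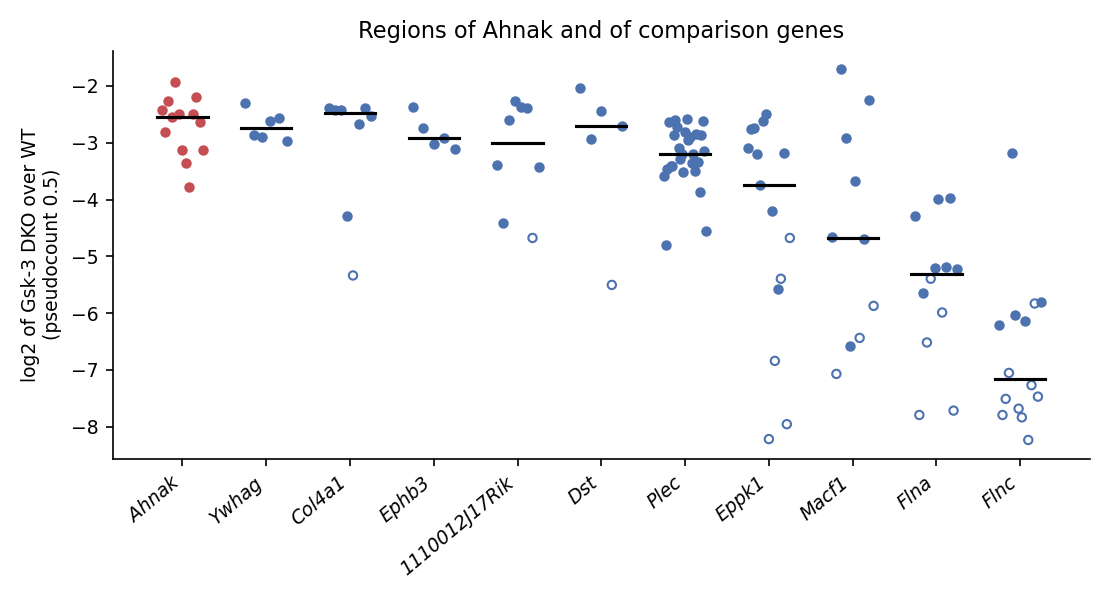
Log2 of Gsk-3 DKO over WT (vertical axis, 0.5 added to each count) of every listed region of Ahnak, of the genes nearest to it in summed ratio, and of giant linker and scaffold genes. Each point is a region, open points have 0 DKO reads and the bar is the median of the gene. The 13 Ahnak points lie between -3.78 and -1.93, all filled, while 9 of 14 Flnc points are open.

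Genes whose products work with AHNAK were mostly not listed. Of 29 such genes, 9 were listed, and 20, among them Anxa2, S100a10, Dysf and Cav1, were not. Most of the 29 belong to the annexin, dysferlin, calpain, caveola and calcium channel complexes. Plcg1, Smad3 and Prkca, all of them listed, lie outside these complexes. For comparison, 3450 of 21896 protein-coding genes in the RefSeq table (15.8%) were listed. The 9 of 29, which include Plcg1, Smad3 and Prkca, are a larger share than among protein-coding genes, with no test of the difference. Of the 9, 6 were at least 10-fold lower in DKO, beside 59.5% of all 3882 genes, and 4 had no DKO reads, beside 42.3% of all genes. Both counts are close to those shares. Ptrf, a coat protein of caveolae, had 18 DKO and 405 WT reads (18.6-fold lower), the kinase gene Prkca 3 and 82 (22.5-fold), the calcium channel subunit gene Cacnb2 6 and 82 in an intron-labelled region (11.3-fold), and Smad3, a mediator of TGF-β signalling, 6 and 80 (10.997-fold). The median fold of the 9 was 11.3, close to the 12.3 of all genes, and each had fewer reads than Ahnak in both libraries.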

How the data were processed

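The deposited table was the source of all values. Its whole-number counts per region and genotype were made by the authors. The submitters' processing notes name Bowtie2, DESeq and mm9 without a role, and the peak caller and any normalization are not given in the labels or headers. The deposited ratio (enrichment factor) is WT count over DKO count times a constant, and the deposited signal (read density) is the WT count per base. Rows repeated under several genes were used once per region or gene. Folds were computed with that constant, log2 values with a pseudocount of 0.5, and zeros at a floor of 3 counts. Intervals are exact (Poisson or Clopper-Pearson, 95%, scipy 1.17.1), and their recovery was tested on simulated data. Depth per sample is unknown beyond the listed counts. With 1 library per group no test across samples was made. The rule named every Ahnak region, the 5 genes nearest in summed ratio, the 4 deepest of each list, and Plec, Flna, Flnc and Dst. Members and lists were chosen with earlier results of these data known. Alternatives changed the constant, pseudocount, regions and gene measure. Region sequences were not used here. The values of 1 gene of the scaffold list are not reported here.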

Additional observations from a re-analysis of the deposited data

How the results depend on the processing

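The Ahnak fold of 6.36 was 7.71 without the constant between the libraries. A median-ratio factor, which centres regions with DKO reads by construction and shifts every log2 value up by 3.77, turned the fold to 0.467 and the median log2 (-2.54) to 1.23, and so carries no information on direction. The 2 regions at least 10-fold lower became 4 without the constant, 0 with that factor, and 1 among the 12 regions whose mean count reaches the table's median, where the region with 2 DKO reads is left out. The third smallest fold of 142 genes became the second with the median of the regions, and the second of 27 genes with at least 8 regions. All 39 alternatives of single regions stayed inside their counting intervals. They changed the pseudocount or left out the constant, and the median-ratio factor was not among them. The range of log2 values (1.85) was 1.98 and 1.28 with pseudocounts of 0.25 and 2. The fold without the 2 farthest regions was chosen after seeing the data. Alternatives restricted to coding-exon regions gave no value, since no Ahnak region has that label. No paired analysis was possible because each group had 1 library. Few DKO reads limit the single regions.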
